A study of Mus musculus with 16 samples.

Results

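The dystrophin-glycoprotein complex genes described here are the 8 genes *Dmd*, *Utrn*, *Dag1*, *Sgca*, *Sgcb*, *Sgcd*, *Dtna* and *Sspn*. They were chosen by name, as subunits of the complex or the close relative of one, by a rule that uses no measured value, though with earlier results of these data known. All 8 were found by Ensembl identifier among the 49585 genes of both count tables, and all 8 passed the filter on low counts in the table of wild-type and AMPK-KO cells. In the table of TET2 knock-in cells 7 passed, and *Dmd* did not.

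The complex ties the actin cytoskeleton of a muscle fibre to the basement membrane around it. Dystrophin, encoded by *Dmd*, binds actin inside the cell and β-dystroglycan at the membrane, and α-dystroglycan outside the cell binds laminin; *Dag1* encodes both dystroglycans as one precursor. The sarcoglycans (*Sgca*, *Sgcb* and *Sgcd* among them) and sarcospan (*Sspn*) form a subcomplex in the membrane that holds the dystroglycans in place, while α-dystrobrevin (*Dtna*) binds dystrophin from the cytoplasm. Utrophin (*Utrn*) is the autosomal relative of dystrophin, is made in many cell types and is known for its place at the neuromuscular junction. Loss of dystrophin causes Duchenne muscular dystrophy, and loss of a sarcoglycan causes a limb-girdle muscular dystrophy.

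Gene-level read counts from RNA-seq of the mouse myoblast line C2C12 were available for 16 libraries in 6 groups. The first table holds WT and AMPK-KO cells, 2 libraries each as myoblasts at day 0 and 2 each at day 8 of differentiation into myotubes in medium with equine serum; AMPK-KO cells carry CRISPR/Cas9 knockouts of both catalytic subunits of AMP-activated protein kinase, *Prkaa1* and *Prkaa2*. The second table holds AMPK-null cells, described by the study as undifferentiated and taken as day 0, in which both alleles of endogenous *Tet2* carry a FLAG-BirA tag. They are either TET2-WT or TET2-S97E, a change at serine 97 that mimics its phosphorylation, with 2 clones of each genotype and 2 libraries of each clone. The AMPK deletion is therefore shared by both TET2 genotypes, clones are nested within genotype, and the study shows its sequencing data for more than one independent AMPK-KO line without labels that tie a library to a line, so that the AMPK-KO replicates may be different lines, and a difference between genotypes and a difference between the lines picked cannot be told apart. Nothing in the labels says that the replicates are separate cultures, so p-values measure the spread between these libraries, which may be technical.

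Total counts per library were 17883417 to 24663079 for WT and AMPK-KO cells and 19801909 to 37790358 for the knock-in cells. Values are given as CPM, the counts scaled to a common library total and, within each table, by the trimmed mean of M-values (TMM); the tables were normalized separately and no test crosses them. For a gene without a count, 3 counts were taken as the limit that a count of 0 allows, which is 0.122 to 0.168 CPM for WT and AMPK-KO cells and 0.0794 to 0.152 CPM for knock-in cells, and covers counting error only.

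The edited genes were read first. *Prkaa1* stood at 158 and 159 CPM in WT d0, 79.7 and 78.0 in AMPK-KO d0, 126 and 125 in WT d8, and 83.3 and 82.5 in AMPK-KO d8, and at 73.5 to 104 CPM in the 8 TET2 libraries. *Prkaa2* was 1.69 and 1.79 CPM in WT d0 and 6.22 and 10.1 in WT d8, against 0.209 to 1.27 in the 4 AMPK-KO libraries. In the 8 TET2 libraries, normalized separately, *Prkaa2* was 0.454 to 1.73 CPM. Both were lower in every AMPK-KO library than in either WT library of the same day, and neither was absent; counts over a whole gene do not show a small deletion. *Tet2* was 22.5 to 58.4 CPM in the 4 TET2-WT libraries and 7.87 to 22.1 CPM in the 4 TET2-S97E libraries, so its level in the second table also differed between the genotypes.

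Markers of the labelled cells were read next, from lists that are given by their summed CPM. The myoblast genes (*Myod1*, *Myf5* and *Pax7*) summed to between 65.4 and 206 CPM in WT and AMPK-KO cells and between 41.2 and 174 CPM in knock-in cells; *Pax7* was at 3 counts or fewer in each of the 4 AMPK-KO libraries. The 8 myotube genes, structural genes of the sarcomere and the enzyme creatine kinase among them, summed to 157 and 101 CPM in WT d0, 18.1 and 12.2 in AMPK-KO d0, 4994 and 6870 in WT d8, and 1652 and 9615 in AMPK-KO d8. The AMPK-KO d8 libraries thus stood far apart: *Acta1*, skeletal α-actin and the most abundant gene of the list there, was 1099 CPM in replicate 1 and 6426 CPM in replicate 2, and replicate 2 had the highest sum of the table. Without *Acta1* the sums at day 8 were 1997 and 3237 CPM in WT and 553 and 3189 CPM in AMPK-KO cells, and *Myog*, the myogenin gene, was 255 and 429 CPM in WT d8 and 63.9 and 191 CPM in AMPK-KO d8. Results of the complex genes at day 8 are therefore also given without each of these libraries, while those of the related lists are given from all libraries only.

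The TET2 libraries are all labelled as day 0, and their myotube genes differed widely. They summed to 10.9, 13.9, 30.3 and 220 CPM in TET2-WT (clone 1 replicates 1 and 2, then clone 2 replicates 1 and 2) and to 4825, 1528, 1584 and 330 CPM in TET2-S97E in the same order. Of the 7 that passed the filter, 6 were called higher in TET2-S97E, with a median log2 fold change of 4.61. Genes of cycling cells summed to 69.0 to 163 CPM in TET2-WT and 138 to 347 CPM in TET2-S97E. In the separately normalized first table they summed to 617 to 1182 CPM at day 0 and 79.1 to 197 CPM at day 8. Fibroblast genes, *Dcn* being the most abundant in every TET2 library, summed to 259 to 870 CPM in TET2-WT and 376 to 1328 CPM in TET2-S97E. Of that list *Thy1* had at most 4 counts in any of the 16 libraries. Markers of other cell types were low: *Adgre1* of macrophages and *Cidec* of adipocytes had no count in all 16 libraries, *Ptprc* and *Sox10* had at most 1 count, *Pecam1* at most 8 and *Myh11* at most 16, while *Acta2*, which smooth muscle shares with other contractile cells, reached 2656 CPM. In bulk RNA, fewer cells of a type and less RNA per cell cannot be told apart.

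The members span very different gene models on GRCm38 (GENCODE M21 positions). *Dmd* (ENSMUSG00000045103.17) lies on chrX:82948870-85206141, on the plus strand, with 79 exons in the transcript of the longest coding sequence, which encodes 3678 residues. Its 6 introns over 100000 bases, the longest 249539, exceed the largest intron the alignment allowed, and so do 2 of *Sgcd* (ENSMUSG00000020354.15, chr11:46896253-47988969, minus strand); reads spliced across them could be missed, which was not tested. *Dmd* counts are the sum over 14 annotated transcripts and do not separate full-length dystrophin from its short isoforms. *Utrn* (ENSMUSG00000019820.9) lies on chr10:12382188-12869365, minus strand, and encodes 3430 residues. *Dag1* (ENSMUSG00000039952.15) lies on chr9:108204634-108263958 and *Sgca* (ENSMUSG00000001508.15) on chr11:94962791-94976327, both on the minus strand. *Sgcb* (ENSMUSG00000029156.11) is on chr5:73632749-73647790, minus strand and *Sspn* (ENSMUSG00000030255.13) on chr6:145931641-145965223, plus strand. The antisense gene *Sspnos* overlaps an exon of *Sspn* but had at most 11 counts in any library.

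The 250 bases before the annotated start are shown for 3 members that moved in these cells, because E-boxes, the hexamers CANNTG, are the letters bound by MyoD, myogenin and other basic helix-loop-helix factors. The E-boxes are in capitals, each sequence is written 5′ to 3′ along the gene's own strand, and all are RefSeq's for GRCm38.p6, from the windows chrX:82948620-82948869 (*Dmd*), chr11:94976328-94976577 (*Sgca*) and chr9:108263959-108264208 (*Dag1*).
Dmd: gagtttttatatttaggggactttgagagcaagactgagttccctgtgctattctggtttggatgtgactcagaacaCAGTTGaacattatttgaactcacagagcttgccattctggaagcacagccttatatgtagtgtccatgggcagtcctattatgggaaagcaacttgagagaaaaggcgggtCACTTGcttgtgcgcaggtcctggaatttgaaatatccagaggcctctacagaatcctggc
Sgca: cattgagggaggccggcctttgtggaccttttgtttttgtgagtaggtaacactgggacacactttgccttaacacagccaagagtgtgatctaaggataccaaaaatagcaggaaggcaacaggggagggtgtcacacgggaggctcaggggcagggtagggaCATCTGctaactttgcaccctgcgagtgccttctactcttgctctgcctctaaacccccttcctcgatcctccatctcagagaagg
Dag1: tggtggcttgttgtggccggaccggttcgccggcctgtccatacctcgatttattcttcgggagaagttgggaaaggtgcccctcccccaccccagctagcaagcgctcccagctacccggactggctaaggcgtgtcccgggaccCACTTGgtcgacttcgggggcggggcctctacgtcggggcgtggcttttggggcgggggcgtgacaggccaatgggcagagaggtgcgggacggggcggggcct

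The *Dmd* window holds CAGTTG starting 173 bases before the start and CACTTG at 61 bases. *Sgca* has CATCTG at 86 bases and *Dag1* has CACTTG at 104 bases. Over all members, 7 of 8 had a promoter in the RefSeq table, with 10 annotated starts. CANNTG, which reads as itself on both strands, was found before 7 of the 10 starts, in 6 genes. It was absent from the window of *Sgcb*, which was called higher over differentiation in both genotypes. The other *Dmd* window (chrX:85048045-85048294) and the *Sspn* window chr6:145931623-145931872 also had none. The motif is common, being present in 66.2% of all 32851 promoter windows of the same length. CAGCTG, one form of CANNTG, was before none of the 10 starts and in 13.0% of all windows. A match is a description of the letters and not a bound site.

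Per kilobase of exon, *Dag1* was the most abundant member and *Dmd* the least abundant in all 6 groups. In WT d0 the group means of length-scaled level (CPM per kb) ran from 59.1 for *Dag1* through 29.6 for *Sgcb*, 15.2 for *Sspn*, 11.7 for *Utrn*, 7.53 for *Sgca*, 2.90 for *Dtna* and 1.24 for *Sgcd* to 0 for *Dmd*, and no neighbours in this order overlapped. At day 8 of WT cells *Sgca* had moved from the fifth place to the third: the levels were 136 for *Dag1*, 57.8 for *Sgcb*, 43.8 for *Sgca*, 30.2 for *Sspn*, 12.1 for *Utrn*, 3.28 for *Dtna*, 0.995 for *Sgcd* and 0.571 for *Dmd*, again with no overlap of neighbours. In AMPK-KO d0 *Sgca* was the seventh, at 1.10 CPM per kb, where its libraries overlapped those of *Sgcd* at 1.21, and those of *Sgcd* overlapped *Dtna* at 1.34. In AMPK-KO d8 *Sgca* at 17.3, *Sspn* at 14.9 and *Utrn* at 13.2 CPM per kb overlapped in turn.

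In the knock-in cells the length-scaled order also turned on *Sgca*. TET2-WT cells had *Dag1* at 54.8, *Sgcb* at 28.7, *Utrn* at 10.1, *Sspn* at 9.75, *Dtna* at 4.77, *Sgcd* at 1.26 and *Sgca* at 1.19 CPM per kb, with overlap between *Utrn* and *Sspn* and between *Sgcd* and *Sgca*. TET2-S97E cells had *Dag1* at 129, *Sgcb* at 44.4, *Sspn* at 16.6, *Sgca* at 16.0 and *Utrn* at 12.3 CPM per kb, the last 3 overlapping in turn, above *Dtna* at 3.53 and *Sgcd* at 1.37.

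**Figure D1:**
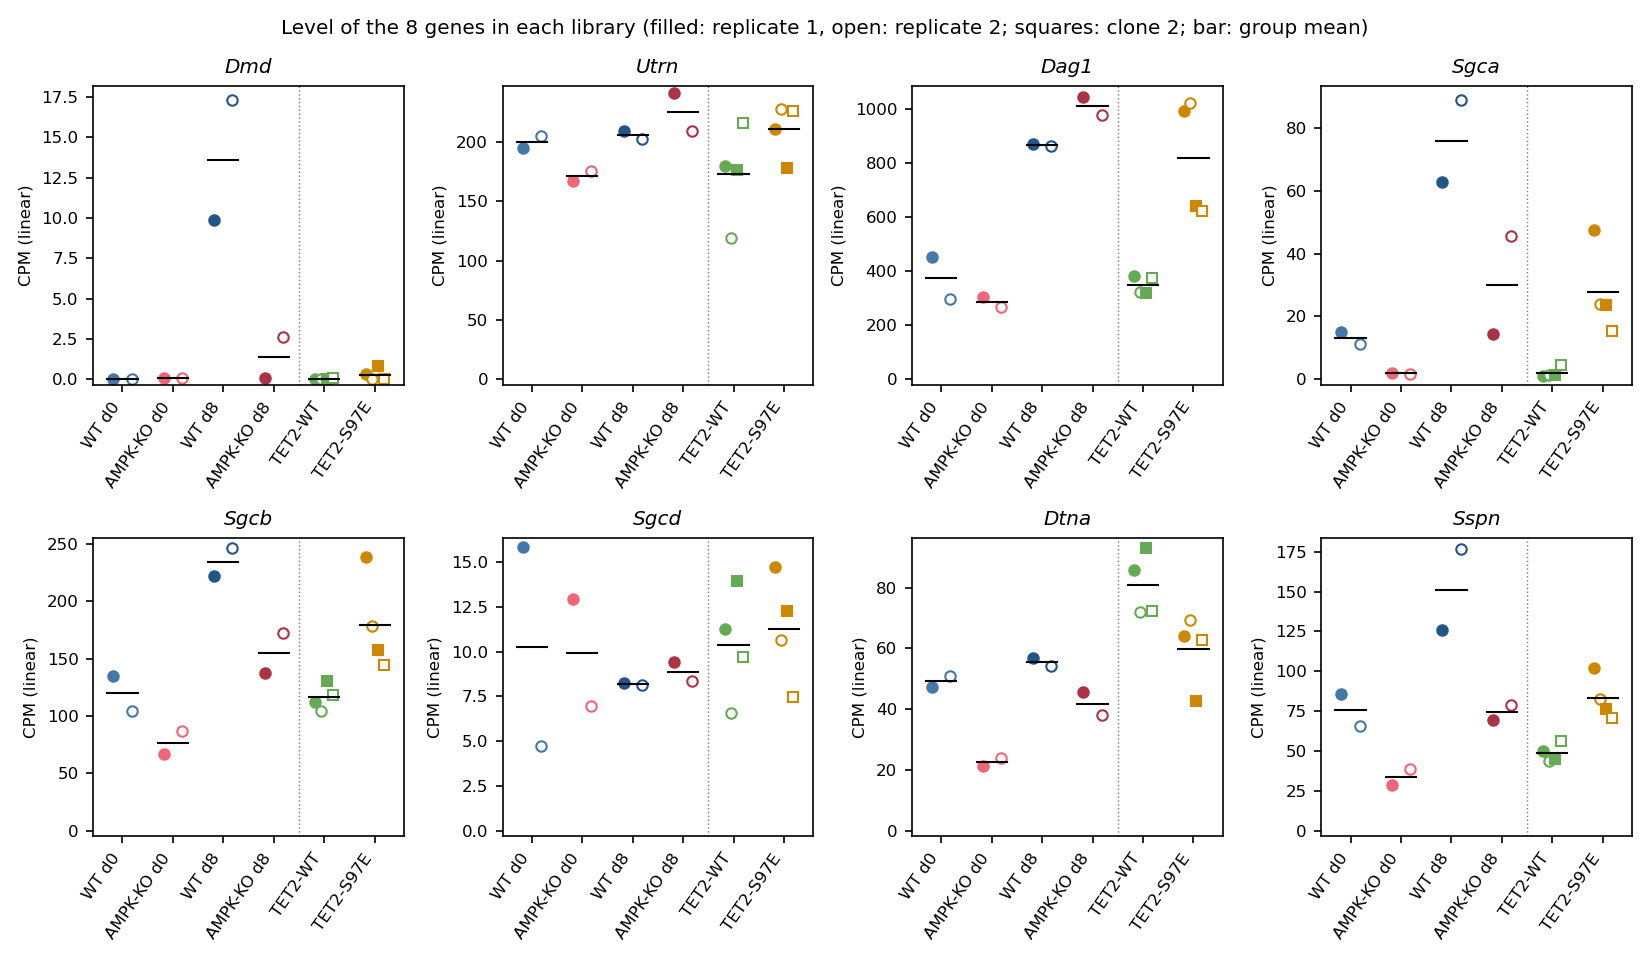
CPM of each of the 8 genes (vertical axis, linear, its own range per gene) in every library of the 6 groups (horizontal axis). Filled points are replicate 1, open points replicate 2, squares clone 2, and bars group means; *Dmd* was seen above 2 CPM only at day 8, and *Sgca* was 62.9 and 89.0 CPM in WT d8 against 1.73 and 2.09 CPM in AMPK-KO d0.

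The first comparison asks how the complex changes as WT myoblasts become myotubes. *Dmd*, *Dag1*, *Sgca*, *Sgcb* and *Sspn* rose between day 0 and day 8, none fell, and *Utrn*, *Sgcd* and *Dtna* did not pass the test. That is 5 of 8 called higher, where 5.78% of the 14329 tested genes were called higher, 6.58% lower and 12.4% in either direction. The median log2 fold change was 0.98 over the 8 genes and 0.01 over all tested genes. The 3 genes of cycling cells fell, 7 of 8 myotube genes rose, and the fibroblast genes went from sums of 622 and 307 CPM to 1364 and 2870 CPM in the same libraries; their part in the result was not tested.

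*Dmd* had no count in either WT d0 library, and 179 and 369 counts in WT d8, or 9.86 and 17.3 CPM. The rise was at least 88.4-fold against 3 counts in each day 0 library (edgeR quasi-likelihood test, adjusted p = 0.0294). *Dmd* passed the filter on low counts through the day 8 libraries, where it was high, so its call is not independent of that filter. Both day 8 libraries were well above both at day 0, and dystrophin transcripts were not detectable in these myoblasts at this depth. *Dmd* still stayed low beside its relative: per kilobase, the level was 3.38 and 6.13 for every 100 of *Utrn* in WT d8.

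*Sgca*, the sarcoglycan most restricted to striated muscle, was 14.9 and 11.2 CPM in WT d0 and 62.9 and 89.0 CPM in WT d8. The groups did not overlap, and the log2 fold change was 2.54 ± 0.52 (SE, n = 2 per group, adjusted p = 0.0269). The β-sarcoglycan gene *Sgcb*, also expressed outside muscle, was 135 and 105 CPM in WT d0 and 222 and 247 CPM in WT d8, with a log2 fold change of 0.97 ± 0.21 (adjusted p = 0.0322). *Sgca* thus moved more than its partner in the subcomplex: for every 100 of *Sgcb* per kilobase there were 25.8 and 24.9 of *Sgca* in WT d0 and 66.2 and 84.3 in WT d8. *Sgcd*, encoding δ-sarcoglycan, was 15.8 and 4.72 CPM in WT d0 and 8.26 and 8.16 CPM in WT d8. Its day 0 libraries lay on either side of those at day 8, and the log2 fold change was −0.32 (95% interval −1.62 to 0.97, adjusted p = 0.732).

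*Dag1* was 454 and 297 CPM in WT d0 and 870.5 and 864 CPM in WT d8. The rise was 1.21 ± 0.23 on the log2 scale (SE, adjusted p = 0.0219), and the day 8 libraries differed far less from each other than those at day 0. *Sspn* was 85.7 and 65.98 CPM in WT d0 and 126 and 177 CPM in WT d8, without overlap, a log2 fold change of 0.99 ± 0.24 (adjusted p = 0.0406). The other members did not pass the test. *Utrn* was 195 and 205 CPM in WT d0 and 210 and 203 CPM in WT d8, and the 95% interval of its log2 fold change ran from −0.30 to 0.39. *Dtna* (ENSMUSG00000024302.15, chr18:23415135-23659715, plus strand) was 47.4 and 50.9 CPM in WT d0 and 56.9 and 54.2 CPM in WT d8, a log2 fold change of 0.18 that did not pass the test (adjusted p = 0.504). With 2 libraries a group an exact permutation test cannot go below p = 0.333, so these calls rest on the spread pooled over all 8 libraries. The count fell to 0 without WT d0 replicate 2, WT d8 replicate 1 or WT d8 replicate 2, to 2 without either AMPK-KO d0 library, to 3 without WT d0 replicate 1 and to 4 without either AMPK-KO d8 library, so that no such fit kept all 5 and *Sspn* was called in 1 of 8; over all genes the first 3 of these fits called 0, 1 and 0. The log2 fold changes of the 5 genes stayed above 0 in all 8.

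**Figure D2:**
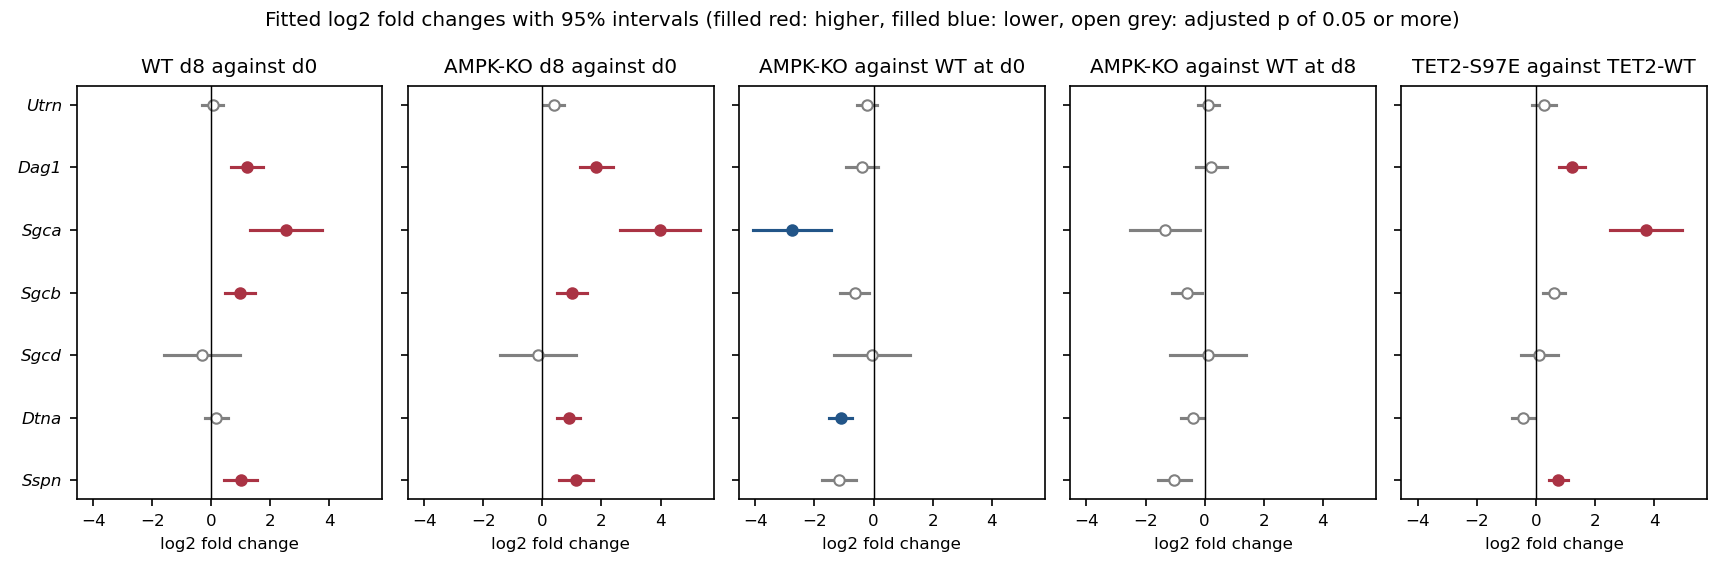
Fitted log2 fold change (horizontal axis) with its 95% interval for 7 genes, without *Dmd*, in 5 comparisons. Red marks genes called higher, blue genes called lower and open grey points genes that did not pass an adjusted p of 0.05; *Sgca* was called higher in both comparisons of day 8 with day 0 and in TET2-S97E, and lower in AMPK-KO at d0.

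The same step was measured in AMPK-KO cells. *Dag1*, *Sgca*, *Sgcb*, *Sspn* and *Dtna* rose from day 0 to day 8 and none fell, 5 of 8 called higher beside 4.81% of all tested genes called higher, 4.95% lower and 9.76% in either direction. The median log2 fold change was 1.07 over the 8 genes and 0.02 over all tested genes. As in WT cells, 7 of 8 myotube genes were called higher and the 3 genes of cycling cells lower. *Myod1* also rose (log2 fold change 3.01, adjusted p = 0.0217). Of the 4 fibroblast genes tested, 1 was called, *Dcn* (4.93, adjusted p = 0.0193). Of these 4, 3 had a positive log2 fold change and *Col1a1* a negative one (−1.06, adjusted p = 0.303). The fibroblast sums went from 123.5 and 168 CPM to 313 and 510 CPM, of which *Dcn* was 240.5 and 400 CPM at day 8. The part of these markers in the result was not tested.

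*Sgca* began lower and rose by 3.97 ± 0.58 on the log2 scale (SE, adjusted p = 0.0217), from 2.09 and 1.73 CPM in AMPK-KO d0 to 14.3 and 45.7 CPM in AMPK-KO d8. The library with the higher myotube sum, replicate 2, also had the higher *Sgca*; per kilobase it held 62.1 of *Sgca* for every 100 of *Sgcb*, against 24.2 in replicate 1 and 7.34 and 4.64 at day 0. *Dag1* was 303 and 268 CPM in AMPK-KO d0 and 1046 and 979 CPM in AMPK-KO d8, with a log2 fold change of 1.83 ± 0.23 (adjusted p = 0.0207). In *Dag1* the replicates of day 8 lay close together, unlike in *Sgca*. *Sgcb* was 66.6 and 87.2 CPM in AMPK-KO d0 and 138 and 172 CPM in AMPK-KO d8 (log2 fold change 1.01 ± 0.21, adjusted p = 0.0348). *Sspn* was 28.8 and 38.8 CPM in AMPK-KO d0 and 69.5 and 79.0 CPM in AMPK-KO d8 (log2 fold change 1.14 ± 0.24, adjusted p = 0.0348). For both genes the days did not overlap.

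*Dtna* was 21.3 and 24.0 CPM in AMPK-KO d0 and 45.7 and 37.99 CPM in AMPK-KO d8, a log2 fold change of 0.88 ± 0.16 (adjusted p = 0.0263). *Utrn* was 167 and 176 CPM in AMPK-KO d0 and 241 and 209 CPM in AMPK-KO d8. Its day 8 libraries were both higher, but the change of 0.39 on the log2 scale did not pass the test (95% interval 0.05 to 0.74, adjusted p = 0.136). *Sgcd* overlapped between the days, at 12.9 and 6.97 CPM in AMPK-KO d0 and 9.42 and 8.36 CPM in AMPK-KO d8. *Dmd* had 1 count in each AMPK-KO d0 library and 2 and 54 counts in AMPK-KO d8. The day 8 mean was 9.10-fold higher against 3 counts in each day 0 library, which is not a lower bound because counts were seen there. Only replicate 2 was above 3 counts, and the change did not pass the test (adjusted p = 0.140). It passed with DESeq2's Wald test (adjusted p = 0.00980) and in edgeR without the filter on low counts (adjusted p = 1.87e-08). The 5 calls fell to 0 without either AMPK-KO d0 library, to 2 without AMPK-KO d8 replicate 2 or either WT d8 library, and to 3 without AMPK-KO d8 replicate 1, where *Dmd* was called as well. Without an AMPK-KO d0 library the fit called 0 or 1 of all genes.

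Whether the change over differentiation itself differed between AMPK-KO and WT cells was tested as an interaction, and no member passed. No gene of the 14329 was called (0.00% higher, 0.00% lower, 0.00% in either direction), although 729 genes, *Dtna* alone among the 8, had an unadjusted p under 0.05. The closest member was *Dtna*, whose log2 change was larger in AMPK-KO cells by 0.71 (95% interval 0.17 to 1.25, adjusted p = 0.892). For *Sgca* the difference was 1.43 (95% interval −0.29 to 3.15) and for *Dag1* 0.62 (95% interval −0.13 to 1.37). DESeq2's Wald test called 54 genes and no member, and the edgeR fit without the filter on low counts called 449 genes, among them *Sgca* (difference 1.40, adjusted p = 0.0316), where 1.07% of genes were called higher. The median difference was 0.35 over the 7 genes without *Dmd*, whose WT d0 libraries had no count, and 0.04 over all tested genes.

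Between the genotypes at day 0, *Sgca* and *Dtna* were lower in AMPK-KO myoblasts and no member was higher. These are 2 of 8 called lower beside 2.83% of all tested genes called lower, 0.698% higher and 3.52% in either direction. *Sgca* was 14.9 and 11.2 CPM in WT d0 and 2.09 and 1.73 CPM in AMPK-KO d0, a log2 fold change of −2.77 ± 0.56 (SE, n = 2 per group, adjusted p = 0.0464). *Dtna* was 47.4 and 50.9 CPM in WT d0 against 21.3 and 24.0 CPM in AMPK-KO d0, a log2 fold change of −1.12 ± 0.16 (adjusted p = 0.0175). In both genes the libraries of a genotype lay close together and the genotypes did not overlap. Of the 8 myotube genes 3, and of the 3 myoblast genes 2, were called lower at the same day, and the summed level of the myotube genes was 157 and 101 CPM in WT d0 against 18.1 and 12.2 CPM in AMPK-KO d0. The fibroblast sums were 622 and 307 CPM against 123.5 and 168 CPM, with no gene of the list called; their part in the result was not tested.

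*Sspn* was next, at 85.7 and 65.98 CPM in WT d0 and 28.8 and 38.8 CPM in AMPK-KO d0, with a log2 fold change of −1.17 ± 0.24 just outside the threshold (adjusted p = 0.0505). With the replicate number as a block, its log2 fold change of −1.19 passed (adjusted p = 0.0416), which made 3 of 8 called lower beside 3.96% of all genes in that fit. *Sspn* also passed with DESeq2's size factors (adjusted p = 0.0489), its Wald test (adjusted p = 0.00131) and no filter on low counts (adjusted p = 2.36e-05), and not in a fit of only the 4 libraries compared (adjusted p = 0.0852), in which *Dtna* also lost its call (adjusted p = 0.0536). *Sgcb* was 135 and 105 CPM in WT d0 and 66.6 and 87.2 CPM in AMPK-KO d0, lower in both AMPK-KO libraries but not called (log2 fold change −0.64, adjusted p = 0.154). *Dag1* (−0.40, adjusted p = 0.379), *Utrn* (−0.22, 95% interval −0.57 to 0.12) and *Sgcd* (−0.05, 95% interval −1.34 to 1.24) had smaller log2 fold changes that did not pass the test. *Dmd* had 0 counts in both WT d0 libraries and 1 in each AMPK-KO d0 library, and no fold is given. The median log2 fold change was −0.64 over the 7 genes without *Dmd* and −0.00102 over all tested genes. The 2 calls fell to 0 without either AMPK-KO d0 library or either WT d8 library, and to 1 without either WT d0 library.

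At day 8 no member was called between AMPK-KO and WT cells in the edgeR test with the filter on low counts, beside 3.98% of all tested genes called lower, 1.36% higher and 5.35% in either direction. Unadjusted, 5 of 8 members and 22.8% of all tested genes had a p under 0.05. DESeq2's Wald test called 3 members lower (*Dmd*, *Sgca* and *Sspn*), beside 7.22% of the genes it tested, and edgeR without the filter called the same 3 (adjusted p = 2.66e-09, 2.00e-05 and 0.000161), beside 6.66%. *Sspn* was 126 and 177 CPM in WT d8 and 69.5 and 79.0 CPM in AMPK-KO d8, without overlap, a log2 fold change of −1.02 ± 0.24 (adjusted p = 0.0582). With the replicate number as a block *Sspn* passed (log2 fold change −1.01, adjusted p = 0.0486), 1 of 8 beside 5.69% of all genes called lower in that fit. *Sgcb*, at 222 and 247 CPM against 138 and 172 CPM, and *Dtna*, at 56.9 and 54.2 CPM against 45.7 and 37.99 CPM, were also lower in both AMPK-KO d8 libraries without passing the test (adjusted p = 0.157 and 0.194).

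*Dmd* and *Sgca* at day 8 depended on 1 library. *Dmd* was 9.86 and 17.3 CPM in WT d8 and 0.0816 and 2.62 CPM in AMPK-KO d8, a log2 fold change of −3.34 ± 1.18 (adjusted p = 0.166). Both AMPK-KO libraries were below both WT libraries; in replicate 2 the myotube sum was above both WT d8 libraries with *Acta1* and between them without it, while *Myog* was below both. *Sgca* was 62.9 and 89.0 CPM in WT d8 and 14.3 and 45.7 CPM in AMPK-KO d8, a log2 fold change of −1.34 ± 0.50 (adjusted p = 0.170). Without AMPK-KO d8 replicate 2 both were called lower, *Dmd* by −7.28 (adjusted p = 0.0168) and *Sgca* by −2.41 (adjusted p = 0.0221) on the log2 scale, where the lone library is assumed to vary like the other groups; without AMPK-KO d8 replicate 1 no member was called. None of the 8 myotube genes was called at day 8, and their median log2 fold change was −0.90. Among the other markers *Pax7* (adjusted p = 0.00629) and the fibroblast genes *Col1a1* (log2 fold change −4.11, adjusted p = 0.0223) and *Lum* (−3.98, adjusted p = 0.0401) were lower in AMPK-KO d8, and the fibroblast genes summed to 1364 and 2870 CPM in WT d8 and 313 and 510 CPM in AMPK-KO d8. The part of these markers in the result was not tested. *Dag1*, at 870.5 and 864 CPM in WT d8 and 1046 and 979 CPM in AMPK-KO d8, lay above WT in both libraries by 0.22 on the log2 scale (adjusted p = 0.603). *Utrn* had a log2 fold change of 0.13 (95% interval −0.22 to 0.47) and *Sgcd* of 0.11 (95% interval −1.18 to 1.41). The median log2 fold change was −0.50 over the 8 genes and 0.04 over all tested genes.

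**Figure D3:**
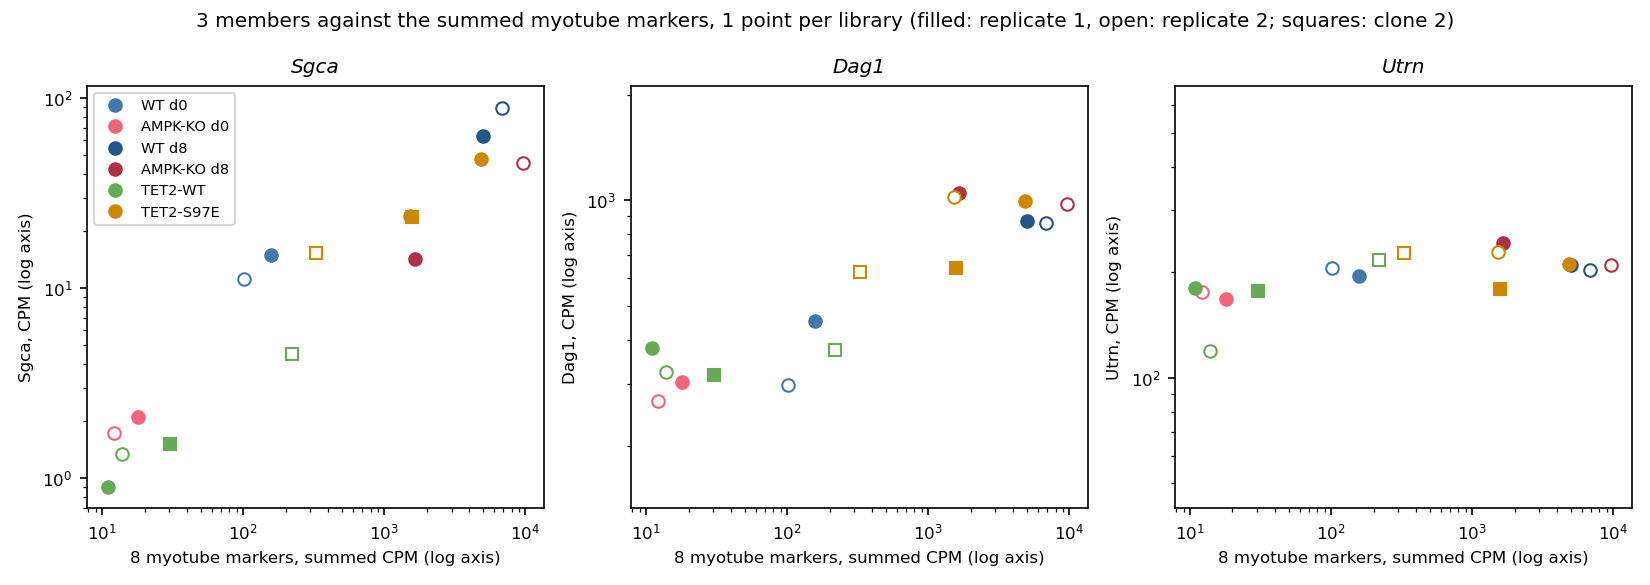
CPM of *Sgca*, *Dag1* and *Utrn* (vertical axes, log scale) against the summed CPM of the 8 myotube genes (horizontal axis, log scale) in the 16 libraries, coloured by group, with the tables normalized separately. *Sgca* was lowest in the TET2-WT and AMPK-KO d0 libraries, whose myotube sums were 10.9 to 220 CPM, while *Utrn* stayed between 119 and 241 CPM in every library.

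The second table asks whether the phospho-mimicking TET2-S97E changes AMPK-null cells at day 0. *Dag1*, *Sgca* and *Sspn* were higher in TET2-S97E than in TET2-WT and no member was lower, 3 of the 7 tested (2 with clone as a random effect, 0 with counts summed per clone), beside 3.71% of all 13433 tested genes called higher, 3.28% lower and 6.98% in either direction. The median log2 fold change was 0.63 over the 7 genes and 0.01 over all tested genes. The summed myotube genes were also higher, at 330 to 4825 CPM against 10.9 to 220 CPM, and *Tet2* itself was lower. Of the other markers, the myoblast genes *Pax7* (adjusted p = 0.00770) and *Myod1* (log2 fold change 2.498, adjusted p = 0.0496), *Mki67* of cycling cells (1.70, adjusted p = 0.0112) and *Acta2* (1.77, adjusted p = 0.00873) were higher and *Tek* of endothelial cells was lower (−1.93, adjusted p = 0.0326). The smooth muscle sum, which was nearly all *Acta2*, was 1013 to 2033 CPM in TET2-S97E and 372 to 701 CPM in TET2-WT. *Tagln* of that list was not called (adjusted p = 0.453), and *Myh11* and *Cnn1* were not tested. Mitochondrial genes held 2.03 to 2.29% of the counts in the TET2-S97E libraries and 1.14, 1.00, 1.38 and 2.14% in the TET2-WT libraries. The part of these values in the result was not tested.

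*Sgca* was 0.904, 1.35, 1.51 and 4.49 CPM in TET2-WT (clone 1 replicates 1 and 2, clone 2 replicates 1 and 2) and 47.7, 24.1, 23.7 and 15.3 CPM in TET2-S97E. Every TET2-S97E library was above every TET2-WT library, and the change was 13.3-fold, or 3.74 ± 0.55 on the log2 scale (SE, n = 4 per group, adjusted p = 0.00787). Within TET2-S97E the library with the lowest *Sgca*, clone 2 replicate 2, also had the lowest myotube sum, and the library with the highest *Sgca*, clone 1 replicate 1, the highest. Per kilobase, there were 1.88, 3.01, 2.71 and 8.84 of *Sgca* for every 100 of *Sgcb* in TET2-WT and 46.7, 31.5, 35.2 and 24.7 in TET2-S97E.

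*Dag1* was 380.1, 323, 318 and 373 CPM in TET2-WT and 992, 1023, 641 and 623 CPM in TET2-S97E. The genotypes did not overlap, the log2 fold change was 1.23 ± 0.20 (adjusted p = 0.0101), and clone 1 of TET2-S97E stood above its clone 2. *Sspn* was 50.01, 43.4, 45.1 and 56.3 CPM in TET2-WT and 102, 82.3, 76.3 and 70.9 CPM in TET2-S97E, again without overlap, a log2 fold change of 0.77 ± 0.15 (adjusted p = 0.0186). *Sgcb* was 113, 104, 130.3 and 119 CPM in TET2-WT and 239, 178, 158 and 145 CPM in TET2-S97E. Its genotypes did not overlap either, but the log2 fold change of 0.63 ± 0.17 just missed the threshold (adjusted p = 0.0562) and passed with DESeq2's Wald test (adjusted p = 0.0204) and without TET2-S97E clone 2 (adjusted p = 0.0244).

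*Dtna* went the other way, at 85.8, 72.1, 93.0 and 72.4 CPM in TET2-WT and 64.0, 69.3, 42.7 and 62.8 CPM in TET2-S97E. All 4 TET2-S97E libraries were below all 4 TET2-WT libraries, with a log2 fold change of −0.44 ± 0.17 that did not pass (adjusted p = 0.150). An exact permutation test (two-sided) gave p = 0.0286 for each of *Dag1*, *Sgca*, *Sgcb*, *Sspn* and *Dtna*, the smallest 4 libraries against 4 can give, treating libraries of 1 clone as separate, whereas 2 clones against 2 cannot go below 0.333; of all tested genes 7.30% had every TET2-S97E library higher and 7.99% every one lower. *Utrn* was 180, 119, 177 and 216 CPM in TET2-WT and 211, 228, 178 and 226 CPM in TET2-S97E, overlapping, with a 95% interval of the log2 fold change from −0.12 to 0.69. *Sgcd* was between 6.59 and 14.0 CPM in TET2-WT and between 7.48 and 14.7 CPM in TET2-S97E, also overlapping.

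*Dmd* stayed near the limit of detection in the second table. It had 0, 1, 0 and 2 counts in TET2-WT and 7, 0, 16 and 0 counts in TET2-S97E, 1 library of each TET2-S97E clone being above 3 counts and the other at 0. The TET2-S97E mean was 2.53-fold higher against 3 counts in each TET2-WT library. Because some TET2-WT libraries had counts, that ratio is not a lower bound. The exact permutation test gave p = 0.429 (two-sided). The ratio rests on the TET2-S97E libraries with counts, at 0.353 CPM (clone 1 replicate 1) and 0.808 CPM (clone 2 replicate 1), and was not computed without either.

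The 4 libraries of a TET2 genotype come from 2 clones, which limits these calls. With counts summed per clone, or with TET2-WT clone 1 left out, none of the 3 members passed, though all kept a positive log2 fold change (3.56 and 3.19 for *Sgca*, 1.23 and 1.25 for *Dag1*, 0.73 and 0.71 for *Sspn*). With clone as a random effect in limma-voom, at an estimated correlation of 0.357, *Sspn* did not pass (adjusted p = 0.0733), nor did it without TET2-S97E clone 1 (adjusted p = 0.0750). With counts summed per clone no gene of the table passed, the genes of the related lists included. Leaving out 1 library kept *Sgca* and *Dag1* called in all 8 fits and *Sspn* in 5 of 8, and without TET2-WT clone 2 replicate 2, the TET2-WT library with the highest myotube sum, the 3 calls stood.

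Clones of 1 genotype were also compared with each other. In TET2-S97E all 7 tested members had lower fitted values in clone 2 than in clone 1, and *Dag1* was called lower, by −0.67 ± 0.17 on the log2 scale (adjusted p = 0.0460), 1 of 7 beside 2.82% of all 14459 genes called lower, 3.35% higher and 6.17% in either direction. The median was −0.36 over the 7 members and 0.03 over all tested genes, and the myotube sums were 4825 and 1528 CPM in clone 1 against 1584 and 330 CPM in clone 2, while the fibroblast sums were 438 and 376 CPM against 1328 and 743 CPM. Of the marker genes, *Mymx*, *Myh3*, *Myod1* (adjusted p = 0.00117) and *Cdh5* (adjusted p = 0.0143) were called lower in clone 2 and *Dcn*, *Lum* and *Fabp4* (adjusted p = 0.00402, 0.00771 and 0.0433) higher; their part in the result was not tested. *Dag1* was no longer called in 6 of the 8 fits that left out 1 library, among them all 4 without a TET2-S97E library. In TET2-WT no member was called between the clones by edgeR with the filter on low counts (1 of 7 with an unadjusted p under 0.05, against 20.45% of all genes), beside 0.463% of genes called higher, 0.394% lower and 0.858% in either direction. *Sgca* had the largest fitted difference there, 1.39 ± 0.55 on the log2 scale (adjusted p = 0.205), and DESeq2's Wald test called it (adjusted p = 0.0410), beside 3.76% of genes called higher by that test, as did edgeR without the filter (adjusted p = 0.000221), beside 4.30%. Of the marker genes, edgeR with the filter called *Col1a1* (2.91, adjusted p = 0.0368), *Lum* (2.88, adjusted p = 0.0465) and *Myod1* (1.32, adjusted p = 0.0388) higher in TET2-WT clone 2. Fibroblast sums were 270.5 and 259 CPM in TET2-WT clone 1 and 652 and 870 CPM in clone 2. The part of these markers in the result was not tested.

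Outside the 8 genes, the list of other components of the complex (12 genes, 9 tested in the first table) holds syntrophins and membrane partners among others. In WT cells 4 of 9 rose at day 8 and none fell, beside 5.78% of all tested genes called higher, with a median log2 fold change of 0.54 against 0.01. Among these, *Drp2* is named after its values were seen (dystrophin-related protein, log2 fold change 0.75, adjusted p = 0.0481). *Nos1*, the neuronal nitric oxide synthase that the complex holds at the muscle membrane, was 0.627 and 0.705 CPM in WT d0 and 25.8 and 54.2 CPM in WT d8 (log2 fold change 5.90, adjusted p = 0.0105). *Cav3*, muscle caveolin, had 1 and 3 counts in WT d0 and 495 and 829 counts in WT d8 (adjusted p = 0.0143). That is 215-fold higher against 3 counts in each day 0 library, which is not a lower bound because counts were seen there. *Cav3* passed the filter on low counts through the day 8 libraries. In AMPK-KO cells 2 of 9 rose, beside 4.81% of all genes, among them the syntrophin gene *Sntb1* (log2 fold change 1.63, adjusted p = 0.0349), and none fell.

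*Nos1* and *Cav3* had the lowest adjusted p among the other components between AMPK-KO and WT cells at day 8. There, 3 of 9 were lower in AMPK-KO cells, beside 3.98% of all genes, and 1, *Sntb2*, was higher (log2 fold change 0.92, adjusted p = 0.0343); the third lower gene, *Drp2* (−0.94, adjusted p = 0.0397), was again named after its values were seen. *Nos1* was 1.39 and 1.46 CPM in AMPK-KO d8, close to the 1.52 and 1.59 CPM of AMPK-KO d0, and its log2 fold change against WT d8 was −4.81 (adjusted p = 0.00404). *Cav3* had 1 and 13 counts, or 0.0408 and 0.632 CPM, in AMPK-KO d8 against 27.3 and 38.9 CPM in WT d8 (log2 fold change −6.66, adjusted p = 0.0128). Both genes were low in each AMPK-KO d8 library, whose myotube sums without *Acta1* were 553 and 3189 CPM. As a difference of the changes over differentiation, *Nos1* reached −6.02 on the log2 scale and did not pass the adjustment (adjusted p = 0.196). At day 0 none of the 9 was called between AMPK-KO and WT, beside 3.52% of all tested genes called in either direction. *Cav3* had at most 4 counts in any TET2 library.

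**Figure D4:**
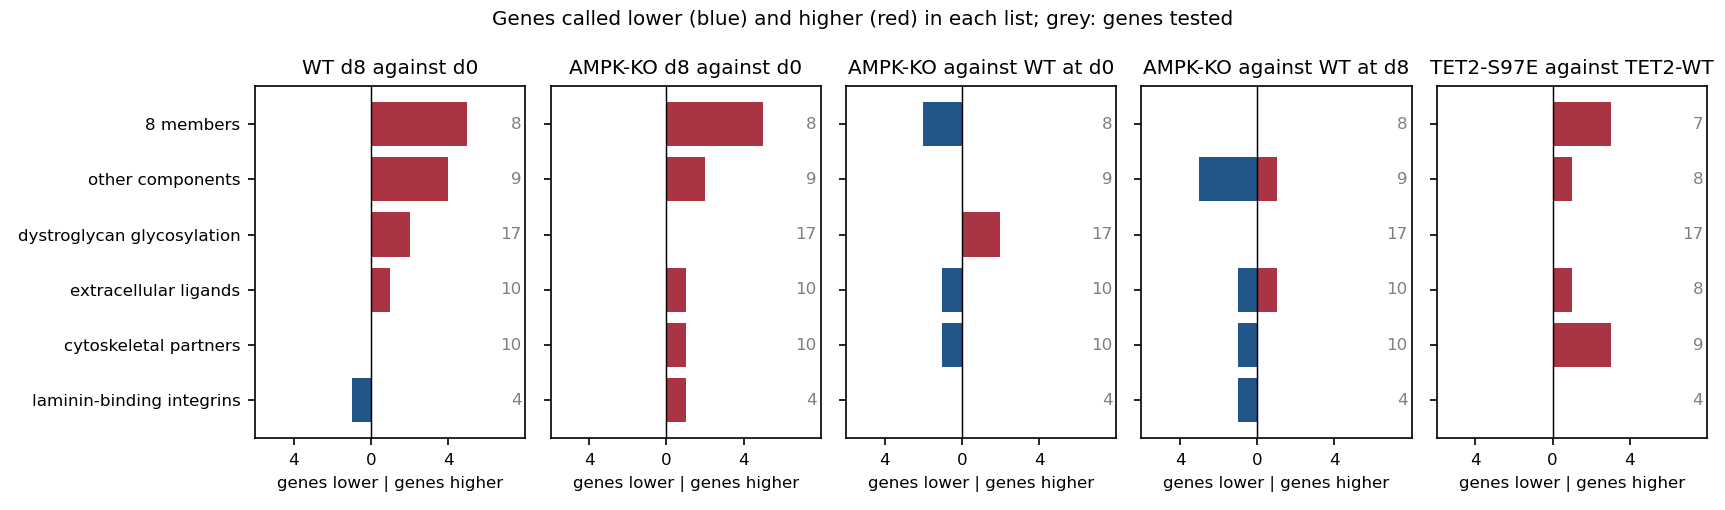
Number of genes called higher (to the right) and lower (to the left) at an adjusted p of 0.05 in the 8 complex genes and 5 lists of related genes, in 5 comparisons, with the number tested printed in grey. The complex genes had 5 called higher in each comparison of day 8 with day 0, and the 17 glycosylation genes had at most 2 called in any comparison.

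The enzymes that glycosylate α-dystroglycan, on which laminin binding depends, were 17, all tested. In WT cells 13 of the 17 had a positive log2 fold change at day 8 and 2 were called higher, *B3galnt2* (log2 fold change 0.69, adjusted p = 0.0333) and *Pomgnt2* (1.55, adjusted p = 0.0470), and none was called in AMPK-KO cells at day 8 against day 0. Over all tested genes, 5.78% were called higher in WT cells and 4.81% in AMPK-KO cells. The median log2 fold changes were 0.44 and 0.24, against 0.01 and 0.02 over all tested genes. At day 0, *Rxylt1* (0.79, adjusted p = 0.0255) and *Dpm3* (1.32, adjusted p = 0.0370) were higher in AMPK-KO than in WT cells, 2 of 17 where 0.698% of all genes were called higher. None of the 17 was called between the genotypes at day 8, or between TET2-S97E and TET2-WT, where 5.35% and 6.98% of all tested genes were called in either direction.

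Among extracellular ligands, *Lama2*, the laminin α2 chain of the muscle basement membrane, rose in both genotypes. It was 42.4 and 43.0 CPM in WT d0, 63.9 and 59.1 in AMPK-KO d0, 89.7 and 86.9 in WT d8, and 182 and 158 in AMPK-KO d8. The log2 fold change over differentiation was 1.05 in WT (adjusted p = 0.0143) and 1.47 in AMPK-KO cells (adjusted p = 0.0179), and *Lama2* was higher in AMPK-KO than in WT at day 8 by 0.94 (adjusted p = 0.0160). *Lama4*, the laminin α4 chain, was 18.4 and 2.98 CPM in WT d0 and 22.9 and 26.5 CPM in WT d8, and had no count in either AMPK-KO d0 library and 0 and 1 count in AMPK-KO d8. Its level in AMPK-KO cells was at least 72.0-fold lower at day 0 (adjusted p = 0.0290). At day 8 it was 184-fold lower against 3 counts in each library (adjusted p = 0.0179), which is no bound because 1 count was seen. *Lama4* passed the filter on low counts through the WT libraries. The day 0 bound uses the mean of WT libraries that lay far apart, 18.4 and 2.98 CPM, and would be smaller without the higher one. In TET2-S97E *Bgn*, encoding biglycan, was higher by 1.37 (adjusted p = 0.0207), the 1 gene called of 8 tested, beside 3.71% of all tested genes called higher. In the 10 ligands tested in the first table no other gene was called in these comparisons. Over all tested genes, 12.4% were called in either direction in WT cells at day 8 against day 0 and 9.76% in AMPK-KO cells. Between the genotypes, 3.52% were called at day 0 and 5.35% at day 8.

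*Ank3*, the ankyrin-G gene of the list of cytoskeletal partners, was present in every WT library and nearly absent from AMPK-KO cells. It was 19.6 and 32.5 CPM in WT d0 and 22.6 and 25.4 CPM in WT d8, against no count in AMPK-KO d0 and 1 and 0 counts in AMPK-KO d8. The level was at least 176-fold lower at day 0 (adjusted p = 0.00457). At day 8 it was 179-fold lower against 3 counts in each library (adjusted p = 0.00398), which is no bound because 1 count was seen. *Ank3* passed the filter on low counts through the WT libraries. Over all tested genes, 2.83% were called lower at day 0 and 3.98% at day 8. In the separately normalized second table, where all cells lack AMPK, *Ank3* was 0.0458 to 2.58 CPM. Of 10 partners tested, none was called in WT cells at day 8 and 1, *Sync* (syncoilin), rose in AMPK-KO cells (log2 fold change 1.31, adjusted p = 0.0352). Over all tested genes, 5.78% were called higher in WT and 4.81% in AMPK-KO cells. In TET2-S97E 3 of 9 were higher and none lower, beside 3.71% and 3.28% of all genes: *Sync* (0.90, adjusted p = 0.0320), *Plec* (plectin, 0.84, adjusted p = 0.0326) and *Flnc* (filamin C, 1.10, adjusted p = 0.0406).

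The laminin-binding integrins, the other laminin receptors of the muscle cell, were 4 genes. *Itga3* fell in WT cells at day 8 (log2 fold change −1.37, adjusted p = 0.0238), *Itga7*, the α7 chain of muscle, rose in AMPK-KO cells (1.65, adjusted p = 0.0340), and *Itga6* was lower in AMPK-KO than in WT at day 8 (−1.49, adjusted p = 0.0294). Over all tested genes, 6.58% were called lower in WT cells at day 8 and 4.81% higher in AMPK-KO cells. Between the genotypes at day 8, 3.98% were lower. None of the 4 integrins was called at day 0 or in TET2-S97E, where 3.52% and 6.98% of all tested genes were called in either direction. Between the TET2-S97E clones, *Itga7* was lower in clone 2 (−1.36, adjusted p = 0.00388), as were *Sntb1* (−1.90, adjusted p = 0.00310) and *Des*, encoding desmin (−1.59, adjusted p = 0.0139). Among genes of these lists that were higher in clone 2 were *Synm* (2.44, adjusted p = 0.0341), *Bgn* (0.81, adjusted p = 0.0434) and *Sgce* (0.78, adjusted p = 0.0473). Between these clones 2.82% of all tested genes were called lower and 3.35% higher.

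Genes whose log2 CPM followed a member most closely over the 8 libraries of the first table were looked up among the other 14328 tested genes, as a description over libraries that share groups. For *Dmd* these were *Prr32* (Pearson r = 0.993), *Mttp* (0.993) and *Fgf13* (0.991). For *Sgca* they were *Samd8* (0.993), *Ank1* (0.992) and *Actc1* (0.989), the last encoding cardiac α-actin, which immature skeletal muscle also makes. *Dag1* was followed most closely by *Btbd9* (0.994), *Fam241a* (0.988) and *Itm2b* (0.988), and *Utrn* by *Gbp2b* (0.968), *Peg13* (0.954) and *Trpm4* (0.945).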

How the data were processed

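Libraries of total RNA without ribosomal RNA were read from both ends. The authors deposited 2 tables of gene counts, which are raw counts per gene of GENCODE M12; per the submitters' processing notes they used bcl2fastq 2.17, Trim Galore 0.4.5, STAR 2.5.3a on mm10 and featureCounts 1.5.3. Settings for strand and multiply mapped reads are not given in the sources used here, so reads of antisense genes cannot be told apart from those of their partners. Gene names came from GENCODE M21 (49326 of 49585 identifiers matched).

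Each table was filtered (filterByExpr), scaled by TMM and tested with edgeR 4.0.16 (R 4.3.3), by the quasi-likelihood test with Benjamini-Hochberg adjustment over all tested genes and a threshold of 0.05. One fit over 8 libraries gave all comparisons of WT and AMPK-KO cells, and the TET2 table was fitted by genotype and by clone. Log2 fold changes are edgeR's, with standard errors and 95% intervals from the same fit. A fold against a group at 3 counts or fewer in each library used 3 counts per library. It is given as a bound only where that group had no count. The fits had 4, 6 and 4 residual degrees of freedom. Alternatives were DESeq2 1.42.0 (size factors, Wald test), no filter, limma-voom (limma 3.58.1), a replicate block, counts summed per clone, and leaving out libraries or clones. The edgeR code was tested on simulated data.

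In the first table, replicates of the same number deviated together from their group means in all 6 pairs of groups (correlations 0.119 to 0.324 over genes). This is a hint of pairing from the data that the labels do not state. It was used only in the alternative fit with a replicate block, and the main tests are unpaired. With the block, genes called between AMPK-KO and WT went from 505 to 740 at day 0 and from 766 to 1144 at day 8. No libraries agreed within sampling noise (chi-square test of counts), so each counts once.

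The 8 genes, the related lists and the markers were chosen with earlier results of these data known. Named in the text are all 8 members and, of each list and comparison, at most 3 genes with the lowest adjusted p; 2 genes of the lists are not reported here. Sequences are RefSeq promoter windows (GRCm38.p6). No column of the tables was left without a sample.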

Additional observations from a re-analysis of the deposited data

Results flagged for a closer look

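*Sgca* in TET2-WT clone 2 replicate 2, at 4.49 CPM, lay far above the other 3 TET2-WT libraries, which ran from 0.904 to 1.51 CPM. It was the 1 library so marked, for its gap to the nearest library, in the 16 groups of 4 libraries looked at; chance marks about 1 in 20. The same library had a myotube sum of 220 CPM against 10.9 to 30.3 CPM in the others; its part in the value was not tested. Without any 1 library, the log2 fold change of *Sgca* in TET2-S97E ran from 3.34 to 4.45 and was called in 8 of 8 fits.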

How the results depend on the processing

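Of 61 member results, 16 were called, and none of these changed direction in any of the 222 alternatives run on them. Counts of members called did move. AMPK-KO against WT at d8 went from 0 to 3 with DESeq2's Wald test, to 3 without the filter and to 1 with the replicate block; the difference of the changes went to 1 without the filter. At d0 the count went from 2 to 3 with DESeq2's size factors, its Wald test, no filter and the block, through *Sspn*, and for AMPK-KO d8 against d0 from 5 to 6 with the Wald test and without the filter, through *Dmd*. TET2-WT clones went from 0 to 1 with the Wald test and to 1 without the filter, and TET2-S97E clones from 1 to 2 without the filter. With only the 4 libraries compared, the counts were 3 (WT d8 against d0), 3 (AMPK-KO d8 against d0) and 1 (AMPK-KO against WT at d0). TET2-S97E against TET2-WT went from 3 to 0 both with counts summed per clone and without TET2-WT clone 1, while *Sgcb* was gained with the Wald test and without TET2-S97E clone 2.

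Leaving out 1 library gave 0 to 4 members for WT d8 against d0, 0 to 5 for AMPK-KO d8 against d0, 0 to 0 for the difference, 0 to 2 for AMPK-KO against WT at either day, 2 to 4 for TET2-S97E, 0 to 1 for its clones and 0 to 0 for the TET2-WT clones. Log2 fold changes that crossed 0, none of them called, were *Utrn* (−0.00687 to 0.0781) and *Sgcd* (−0.95 to 0.78) for WT d8 against d0, *Sgcd* for AMPK-KO d8 against d0 (−0.53 to 0.35), *Sgcb* (−0.14 to 0.29), *Sgcd* (−0.94 to 0.78) and *Sspn* (−0.0560 to 0.41) for the difference, *Sgcd* at d0 between AMPK-KO and WT (−0.67 to 1.07) and for TET2-S97E (−0.0480 to 0.30), *Utrn* for the TET2-S97E clones (−0.29 to 0.00188), and *Dag1* (−0.15 to 0.0881), *Dtna* (−0.14 to 0.23) and *Sspn* (−0.0547 to 0.26) for the TET2-WT clones. *Sgcd* also changed sign at d0 with the replicate block (0.0366), and in TET2-S97E without TET2-WT clone 1 (−0.0717) or TET2-S97E clone 1 (−0.0871). The causes were not tested.

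The block turned *Sspn* into a call at d0 and d8 and changed no other member's call in the first table. Replicate numbers in the TET2 table were not taken as pairing, since 2 of 6 correlations were under 0.1 (range −0.04 to 0.51, the other 4 at 0.107 or more); the block there left 3 members called, and 1540 and 677 genes between the TET2-S97E and TET2-WT clones. Called over all genes, the edgeR counts of 1771, 1398, 505, 766, 938, 892 and 124 (comparisons as above, without the difference) became 2608, 2394, 1325, 1569, 1910, 1355 and 895 with the Wald test, and 3293, 3039, 2026, 2503, 1094, 1680 and 1627 without the filter. TET2-S97E had 166 with limma-voom and clone as a random effect, 0 with counts summed per clone 219 without TET2-WT clone 1 and 589 without TET2-WT clone 2. With only the 4 libraries compared, 1168 (WT d8 against d0), 764 (AMPK-KO d8 against d0) and 330 genes (AMPK-KO against WT at d0) were called. Leaving out 1 library gave 0 to 2339, 0 to 1775, 17 to 615, 104 to 935, 304 to 1045, 468 to 1029 and 0 to 271 genes in the order above, and 0 to 6 for the difference. Depth limits *Dmd* most, at 3 counts or fewer in 11 of 16 libraries.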
